A study of Mus musculus with 6 samples.

Results

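The dual-specificity MAP kinase phosphatases were described in mouse melanoma cells kept without the drug (3 control libraries) or given 50 µM fenofibrate (3 libraries). The members are Dusp1, Dusp2, Dusp4, Dusp5, Dusp6, Dusp7, Dusp8, Dusp10, Dusp14 and Dusp16, which are 10 of the 54838 genes in the deposited table, found by gene symbol. They were chosen with the values of this comparison known, so their differences are given here as a description, with sizes and errors and no p-value. Fenofibrate is a drug that lowers blood lipids and whose acid form activates the nuclear receptor PPARα. The source field calls the first control library B16F10, a line of mouse skin melanoma cells, and gives a different suffix for each further library, up to B16F15 in the last fenofibrate library. Taken as written, cell line and treatment cannot be told apart. Exposure time and the vehicle of the control cultures are not given in the sources used here.

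MAP kinases are switched on by phosphorylation of a threonine and a tyrosine in their activation loop, and dual-specificity phosphatases remove both phosphates. Many of these phosphatase genes are themselves transcribed in response to MAP kinase signalling, which makes them negative feedback regulators of the pathway. The nuclear inducible members are Dusp1, Dusp2, Dusp4 and Dusp5, the ERK-specific cytoplasmic members Dusp6 and Dusp7, and the members that prefer the stress kinases JNK and p38 are Dusp8, Dusp10 and Dusp16. Dusp14 is an atypical member that lacks the kinase-binding domain of the others. In melanoma, where the RAS, RAF and ERK cascade is often overactive, Dusp4 and Dusp6 are widely used as readouts of ERK pathway output.

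The libraries held 13540038 to 14710856 counts, and the limit set by a count of 0 was 0.204 to 0.222 CPM (counts scaled to the library total), which covers counting error only. All 7 melanocyte lineage markers were counted, with a summed level of 21209 to 22592 CPM in control and 26034 to 27577 CPM with fenofibrate, and 5 of the 7 were called higher. Fibroblast markers summed to 1.71 to 3.53 and 1.04 to 1.33 CPM, endothelial markers to 0.294 to 0.662 and 0.278 to 0.544 CPM, and keratinocyte markers to 0.0735 to 0.142 and 0.0680 to 0.0739 CPM, in control and fenofibrate. In bulk RNA, a change in the number of cells of a type and a change in RNA per cell cannot be told apart.

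The 10 genes lie on 10 different chromosomes. The windows around the annotated starts of 9 of them were taken from RefSeq on GRCm38.p6, each with 250 bases before the start and 50 after it. No window was found for Dusp4, so the motif counts leave it out. The windows of Dusp1, Dusp5, Dusp8 and Dusp10 are printed because these 4 genes showed the largest fold changes. Each reads 5′ to 3′ on the gene's strand, and capitals mark cAMP response elements (TGACGTCA, and its shorter form TGACG on either strand) and CArG boxes, the core of the serum response element.
Dusp1, chr17:26508423-26508722, minus strand: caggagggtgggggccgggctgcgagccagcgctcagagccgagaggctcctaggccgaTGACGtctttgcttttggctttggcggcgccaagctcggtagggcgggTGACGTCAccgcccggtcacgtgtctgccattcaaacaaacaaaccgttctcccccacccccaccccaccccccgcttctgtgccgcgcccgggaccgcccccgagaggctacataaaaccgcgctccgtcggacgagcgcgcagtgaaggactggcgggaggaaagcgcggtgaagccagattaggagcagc
Dusp5, chr19:53528895-53529194, plus strand: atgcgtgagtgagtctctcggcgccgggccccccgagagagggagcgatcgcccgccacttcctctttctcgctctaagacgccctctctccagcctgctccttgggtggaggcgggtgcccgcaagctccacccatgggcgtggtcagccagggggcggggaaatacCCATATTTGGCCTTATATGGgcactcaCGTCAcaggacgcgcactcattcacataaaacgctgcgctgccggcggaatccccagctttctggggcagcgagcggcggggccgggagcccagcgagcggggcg
Dusp8, chr7:142095235-142095534, minus strand: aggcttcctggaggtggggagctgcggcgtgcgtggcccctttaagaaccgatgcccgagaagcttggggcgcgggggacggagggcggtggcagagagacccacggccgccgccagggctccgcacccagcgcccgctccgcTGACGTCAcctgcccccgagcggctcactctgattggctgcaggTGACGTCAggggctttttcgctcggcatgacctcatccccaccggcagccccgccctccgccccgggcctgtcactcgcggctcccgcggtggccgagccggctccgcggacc
Dusp10, chr1:184034131-184034430, plus strand: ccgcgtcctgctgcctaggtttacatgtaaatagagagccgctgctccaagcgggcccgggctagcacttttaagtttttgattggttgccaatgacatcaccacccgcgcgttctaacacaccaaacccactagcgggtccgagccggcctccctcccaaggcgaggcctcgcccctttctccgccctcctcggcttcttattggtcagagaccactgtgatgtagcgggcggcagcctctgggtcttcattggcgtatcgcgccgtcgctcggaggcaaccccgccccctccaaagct

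The full cAMP response element TGACGTCA, a binding sequence of the CREB and ATF factors, occurred once in the Dusp1 window, 143 bases before the start, and at 107 and 63 bases before the start of Dusp8. It was found in 2 of the 9 windows and in 1.79% of all 32851 windows in the RefSeq table. The shorter TGACG, which the full element contains, was found on either strand in 5 of the 9 windows (Dusp1, Dusp2, Dusp5, Dusp8 and Dusp16) and in 20.8% of all. The Dusp5 window held 2 CArG boxes end to end, CCATATTTGG and CCTTATATGG, starting 82 and 72 bases before the start. A CArG box, which the factor SRF binds, was found in 1 of the 9 windows and in 1.63% of all. The printed Dusp10 window held neither element. Its RefSeq start lies 21079 bases inside the gene as the deposited table gives it, so an earlier start lies outside the window. The same holds for Dusp8 and Dusp14, whose RefSeq starts lie 559 and 904 bases inside. Both full elements of Dusp8 thus lie within its deposited gene span.

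The GC box GGGCGG occurred on either strand in 8 of the 9 windows, all but that of Dusp6, against 35.7% of all windows. The E-box CACGTG was found in those of Dusp1 and Dusp2 (7.15% of all). The AP-1 sequence TGANTCA, the TEAD sequence GGAATG on either strand and the TATA sequence TATAAA on either strand were found in 0 of the 9, against 7.81%, 14.7% and 13.6% of all windows. The GC content of the 9 windows ran from 57.3% to 78.7%, with a median of 68.7%, while the median of all windows was 52.7%. The shares over all windows were not matched for GC content, and its part in the motif counts was not tested. Such matches describe letters in a window and are not evidence that a factor binds there.

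**Figure D1:**
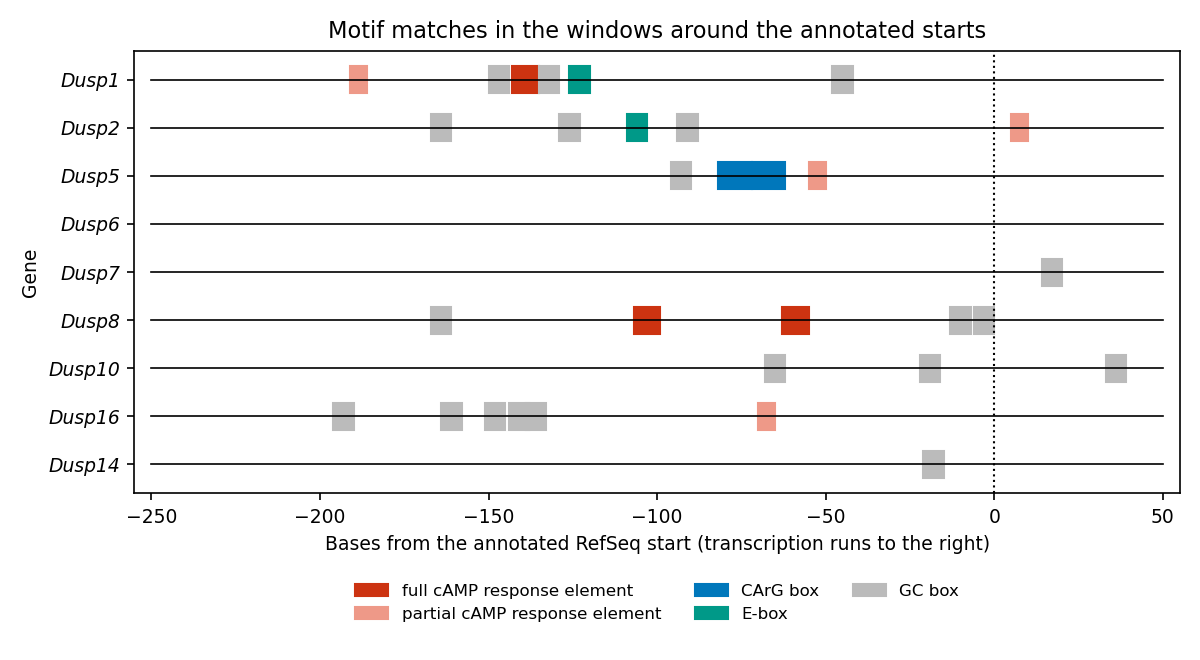
Positions of motif matches from 250 bases before to 50 bases after the RefSeq start of 9 phosphatase genes, with 1 line per gene and 1 coloured box per match. The full cAMP response elements are in the Dusp1 and Dusp8 windows and the 2 adjoining CArG boxes in that of Dusp5, while the Dusp6 window holds none of the motifs drawn.

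All 10 members were counted in every library and passed the filter on low counts. Dusp5, with 13, 7 and 11 counts in control, passed that filter only through its fenofibrate libraries. Its place among the genes tested, and so in the counts below, therefore depends on the difference itself. In the edgeR quasi-likelihood fit over 13629 genes, 8 of the 10 were called higher with fenofibrate and 0 lower (0 also at an unadjusted p of 0.05 and with DESeq2). The threshold was an adjusted p (Benjamini-Hochberg) of 0.05. Among all genes in the fit, 19.5% were called higher and 19.5% lower (2664 and 2662 genes). That split depends on the scaling, with 2180 higher and 3280 lower on library totals without TMM, and 2012 and 3025 with limma on log2(FPKM + 0.5). For the same 8 members, all 3 fenofibrate values lay above all 3 control values, which held for 26.4% of all genes. A call together with a rise of at least 2-fold was found for 4 members and for 3.21% of all genes. The median log2 fold change was 0.73 over the 10 members and -0.00 over all genes. Since the members were chosen with this comparison in view, nothing is read from these shares.

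Of the nuclear inducible members, Dusp1 differed most between the groups. It encodes a phosphatase of p38, JNK and ERK and is an immediate early gene in many cells. The gene (ENSMUSG00000024190) lies on chromosome 17 from 26505590 to 26508519 on GRCm38. Control libraries held 131, 127 and 103 counts of it, and fenofibrate libraries 996, 1110 and 1089. In normalised CPM, which use TMM-scaled library totals, these were 9.44, 8.86 and 7.47 against 75.2, 78.6 and 75.6. The fenofibrate values lay close together and far above the controls, with a coefficient of variation of 2.44% against 11.8% in control. This is a difference of 3.15 ± 0.09 (SE) on the log2 scale, or 8.89-fold (95% interval 7.68-fold to 10.3-fold), and 5.78-fold with limma on log2(FPKM + 1), a scale that understates changes of low genes. By the size of its log2 fold change Dusp1 ranked 41 among the 13629 genes.

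Dusp5, whose product is a nuclear phosphatase specific for ERK, had the lowest FPKM of the members in control (ENSMUSG00000034765, chromosome 19, 53529109 to 53542431). It had 13, 7 and 11 counts in control and 58, 86 and 61 with fenofibrate, or 0.937, 0.488 and 0.798 against 4.38, 6.09 and 4.24 normalised CPM. The groups did not overlap, but the control values rest on 31 counts in all, and their coefficient of variation was 31.0%. On the log2 scale the difference was 2.72 ± 0.28 (SE), or 6.57-fold (95% interval 4.17-fold to 10.4-fold). With limma on log2(FPKM + 1), where the pseudocount exceeds the control level, it was 2.25-fold. An antisense gene annotated across 547 exon bases of Dusp5 has no row in the table, and with no strand setting stated its reads cannot be told apart from those of Dusp5.

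Dusp4, which encodes a nuclear phosphatase of ERK and JNK, had the highest FPKM of the members in every library (ENSMUSG00000031530, chromosome 8, 34807297 to 34819894). Its values were 149.6, 138 and 134 normalised CPM in control and 208, 230.03 and 232 with fenofibrate. The groups were separated by more than the range within either one. Dusp4 was higher by 0.67 ± 0.06 (SE) on the log2 scale, or 1.59-fold. In FPKM this was the largest difference among the members, 27.6 against 12.9 for Dusp1.

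Dusp2 (ENSMUSG00000027368, chromosome 2, 127336159 to 127338376), known best from activated lymphocytes and also a nuclear phosphatase, had 10.8, 12.1 and 11.2 normalised CPM in control and 16.6, 19.05 and 18.0 with fenofibrate. All fenofibrate values were higher, and the log2 fold change was 0.65 ± 0.09 (SE), or 1.57-fold. The 10 white blood cell markers examined summed to 2.28 to 3.62 CPM in control and 4.52 to 7.16 CPM with fenofibrate. Most of this sum was Cd68, a macrophage marker, with 28, 47 and 26 counts in control and 82, 45 and 63 with fenofibrate. Cd68 was the 1 marker tested, and it was called higher (log2 fold change 0.93 ± 0.31, SE, adjusted p = 0.0489 in edgeR), though its groups overlapped. Among the others Adgre1, Itgam, Cd3e and Nkg7 had 0 counts in all libraries, while Ptprc had 0 in each control and 6, 10 and 8 with fenofibrate. Their part in the Dusp2 value was not tested.

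Of the ERK-specific cytoplasmic members, Dusp6 was called higher and Dusp7 was not. Dusp6, a direct feedback inhibitor that holds ERK in the cytoplasm, had 130.7, 125 and 117.5 normalised CPM in control and 176.5, 169.4 and 167.8 with fenofibrate (ENSMUSG00000019960, chromosome 10, 99263231 to 99267489). All 3 fenofibrate values exceeded all control values. Its log2 fold change of 0.46 ± 0.05 (SE), or 1.38-fold, was the smallest among the 8 members called higher. Its close relative Dusp7 (ENSMUSG00000053716, chromosome 9, 106368632 to 106375724) had 28.3, 31.7 and 29.6 normalised CPM in control and 29.97, 34.9 and 29.9 with fenofibrate, so the groups overlapped. Dusp7 differed by 0.08 ± 0.09 (SE) on the log2 scale (95% interval 0.918-fold to 1.22-fold). The 95% interval of Dusp6 ran from 1.27-fold to 1.49-fold. The third gene of this subgroup, Dusp9, is no member and was counted 8, 14 and 11 times in control and 7, 6 and 6 times with fenofibrate, too few to be tested.

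**Figure D2:**
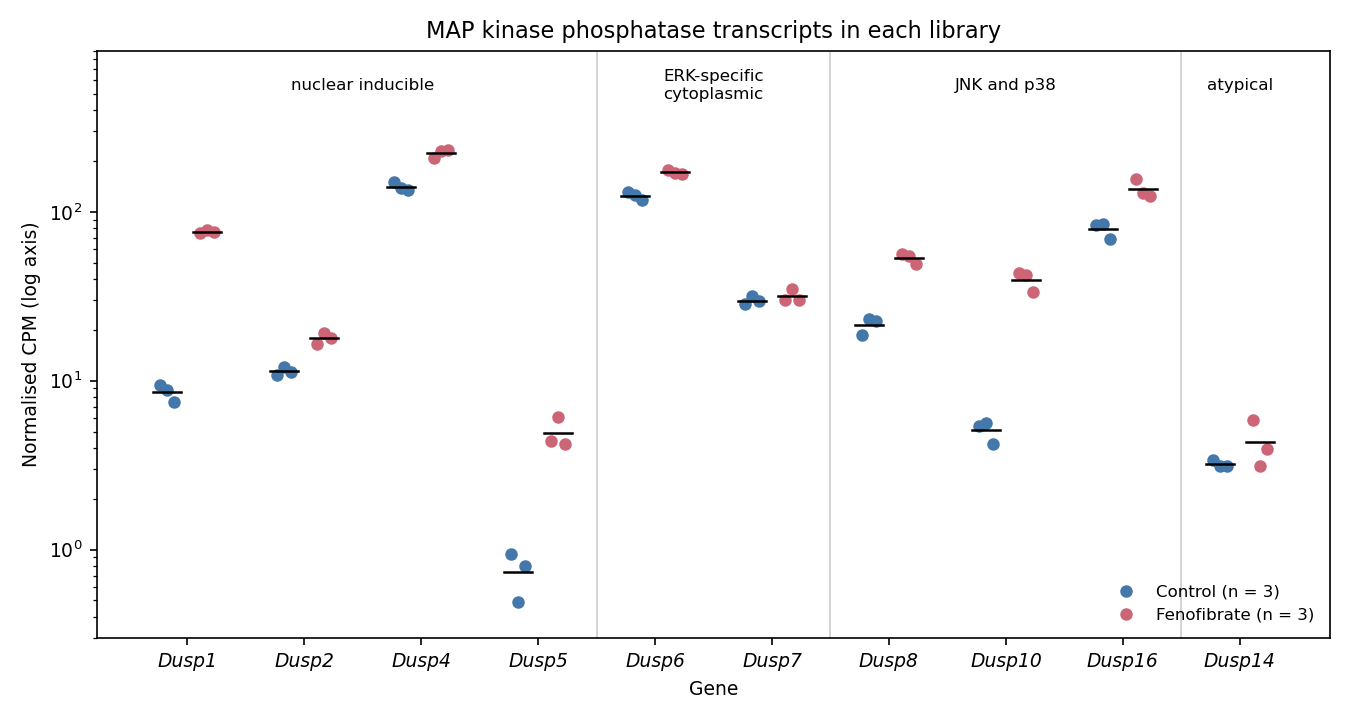
Normalised CPM (log axis) of the 10 phosphatase genes in each of 3 control and 3 fenofibrate libraries, grouped by class, with black bars at the group means. The groups are separate for 8 genes and overlap for Dusp7 and Dusp14, and the gap is widest for Dusp1, Dusp10 and Dusp5.

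All 3 phosphatases of JNK and p38 were called higher, by very different amounts. Dusp10 (ENSMUSG00000039384, chromosome 1, 184013302 to 184075636), which acts on p38 and JNK, was counted 75, 81 and 58 times in control and 572, 594 and 481 times with fenofibrate. This corresponds to 5.403, 5.65 and 4.21 against 43.2, 42.1 and 33.4 normalised CPM. The lowest fenofibrate value was far above the highest control value. The difference was 2.96 ± 0.15 (SE) on the log2 scale, or 7.76-fold, and its 95% interval (6.09-fold to 9.87-fold) overlaps that of Dusp1. With limma on log2(FPKM + 1) it was 4.85-fold. Dusp10 overlaps 1700056E22Rik on the other strand, which shares no exon base with it and was counted 2 to 11 times per library.

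Dusp8, a phosphatase of JNK and p38 best known from brain, had 18.6, 23.1 and 22.7 normalised CPM in control and 56.4, 54.6 and 49.4 with fenofibrate (ENSMUSG00000037887, chromosome 7, 142079490 to 142095843). The groups were well apart, and the log2 fold change was 1.32 ± 0.10 (SE), or 2.49-fold. Gm32786, on the other strand, shares 66 exon bases with Dusp8 and had at most 3 counts in a library. Dusp16, a JNK phosphatase that shuttles between nucleus and cytoplasm, had 83.5, 85.3 and 68.8 normalised CPM in control and 157, 129.7 and 124.6 with fenofibrate. Its spread was wider than that of Dusp8 with fenofibrate, at a coefficient of variation of 12.8% against 6.75%, yet the groups did not overlap. The log2 fold change of Dusp16 was 0.79 ± 0.11 (SE), or 1.73-fold (ENSMUSG00000030203, chromosome 6, 134715468 to 134792625).

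Dusp14 (ENSMUSG00000018648, chromosome 11, 84048041 to 84069261), the atypical member, was counted 47, 45 and 43 times in control and 78, 44 and 57 times with fenofibrate. The controls agreed closely, while fenofibrate replicates 1 and 3 lay above them all and replicate 2 lay near the lowest of them. Dusp14 differed by 0.42 ± 0.25 (SE) on the log2 scale (95% interval 0.899-fold to 1.99-fold), by 0.14 without fenofibrate replicate 1. A change of Dusp14 was not detectable at this spread.

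**Figure D3:**
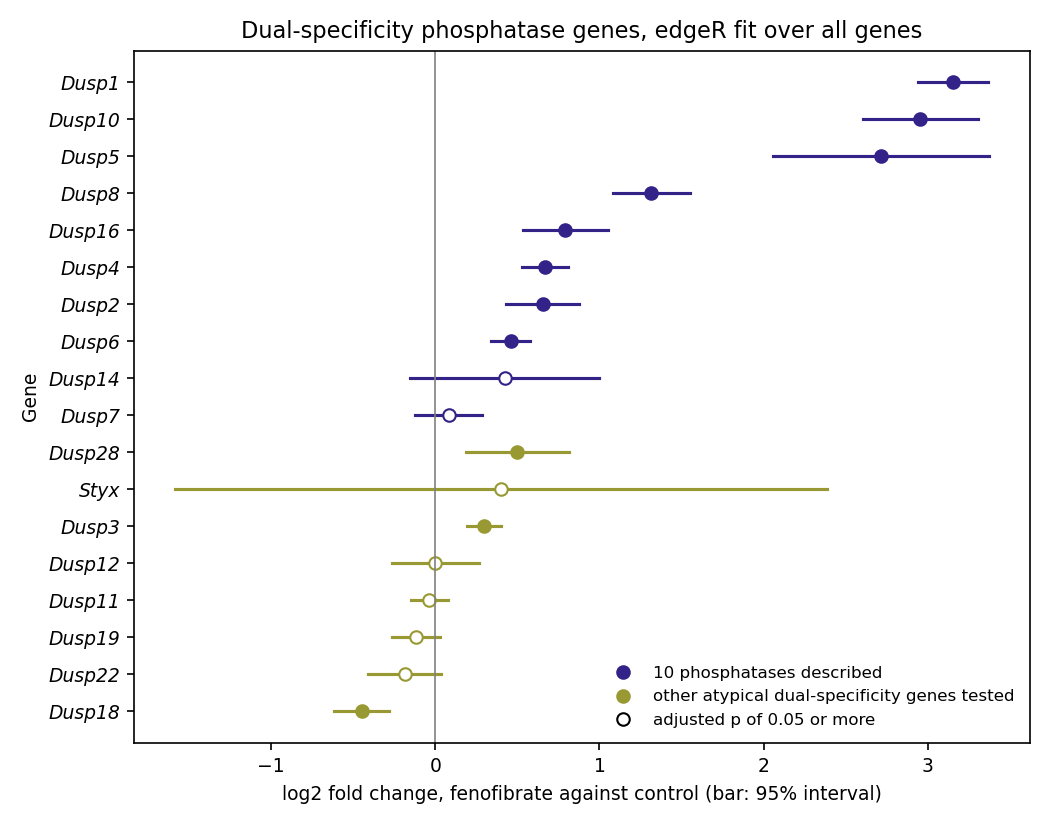
log2 fold changes (points) with 95% intervals (bars) for the 10 phosphatases and the 8 other atypical dual-specificity genes tested, with open points for genes that were not called. Dusp1, Dusp10 and Dusp5 stand between 2.72 and 3.15, while the other atypical genes lie between -0.45 and 0.50, with a wide interval for Styx.

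Levels of different genes were compared in FPKM, counts scaled to gene length and library total, as the authors deposited them. The 10 members summed to 99.1 ± 4.77 FPKM in control and 171 ± 4.06 FPKM with fenofibrate (mean ± SD, n = 3 each). In control, Dusp4 led with 52.2 ± 3.14 FPKM, followed by Dusp6 with 21.4 ± 1.21 FPKM, and these 2 genes were separate from each other and from all others. Next came Dusp16 (6.21 FPKM) and Dusp7 (5.89 FPKM), whose ranges overlapped, and then Dusp2 (4.88 FPKM) and Dusp8 (4.34 FPKM), whose ranges also overlapped. Dusp1 (1.70 FPKM) and Dusp10 (1.47 FPKM) overlapped as well, and Dusp14 (0.721 FPKM) and Dusp5 (0.305 FPKM) stood apart at the low end.

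With fenofibrate Dusp4 (79.9 ± 4.85 FPKM) and Dusp6 (28.3 ± 0.738 FPKM) kept the first places, and Dusp1 moved from the seventh place to the third with 14.6 ± 0.391 FPKM. Dusp10 (11.0 FPKM), Dusp8 (10.4 FPKM) and Dusp16 (10.4 FPKM) followed with overlapping ranges. Dusp7, which held the fourth place in control, held the eighth with 5.998 FPKM, behind Dusp2 with 7.39 FPKM. Of the summed difference of 71.7 FPKM, Dusp4 made up 38.6%, Dusp1 18.0% and Dusp10 13.3%.

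By class, the share of the summed FPKM held by the 2 ERK-specific cytoplasmic genes was 27.5% ± 0.303 in control and 20.1% ± 0.540 with fenofibrate (mean ± SD, n = 3 each). The share of the JNK and p38 phosphatases was 12.1% ± 0.778 in control and 18.6% ± 1.99 with fenofibrate. Neither pair of ranges overlapped. The nuclear inducible share, 59.6% ± 1.04 and 60.7% ± 2.65, differed by less than the spread between libraries. The sums behind these shares were higher with fenofibrate in each of these classes. They averaged 27.3 FPKM in control and 34.3 FPKM with fenofibrate for the ERK-specific genes. For the JNK and p38 phosphatases they were 12.03 and 31.8 FPKM, and for the nuclear inducible genes 59.1 and 103.8 FPKM. Within the JNK and p38 class, Dusp10 held 12.2% ± 1.2 of the summed FPKM in control and 34.6% ± 1.81 with fenofibrate, while the share of Dusp16 was 51.6% ± 3.50 and 32.6% ± 1.86.

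The length behind the deposited FPKM exceeded the merged exon length for some members, by a ratio of 1.0 for Dusp4 and Dusp5 up to 1.91 for Dusp1 and 2.33 for Dusp14, so FPKM understates the latter. Per merged exon length, an alternative chosen after the data were seen, Dusp4 and Dusp6 came closer, at 52.2 ± 3.14 and 40.5 ± 2.30 in control. Dusp4 still led in both groups, Dusp1 again moved from the seventh place to the third, and Dusp16 came ahead of Dusp10 with fenofibrate. Dusp7 (9.22) then came ahead of Dusp2 (8.75) with fenofibrate, and Dusp14 (2.18) ahead of Dusp5 (1.94), both with overlapping ranges. In control, the ranges of Dusp10 (1.70) and Dusp14 (1.68) overlapped, while those of Dusp1 and Dusp10, and of Dusp2 and Dusp8, did not. Of the summed difference per merged exon length, Dusp4 made up 29.2%, Dusp1 25.9%, Dusp6 13.8% and Dusp10 11.7%, so that Dusp6 took the third place from Dusp10. The nuclear inducible share then was 47.6% ± 0.885 in control and 52.8% ± 2.58 with fenofibrate, with ranges that no longer overlapped. The ERK-specific share (38.3% ± 0.277 and 28.03% ± 0.514) and the JNK and p38 share (12.8% ± 0.751 and 18.2% ± 1.84) kept their directions.

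**Figure D4:**
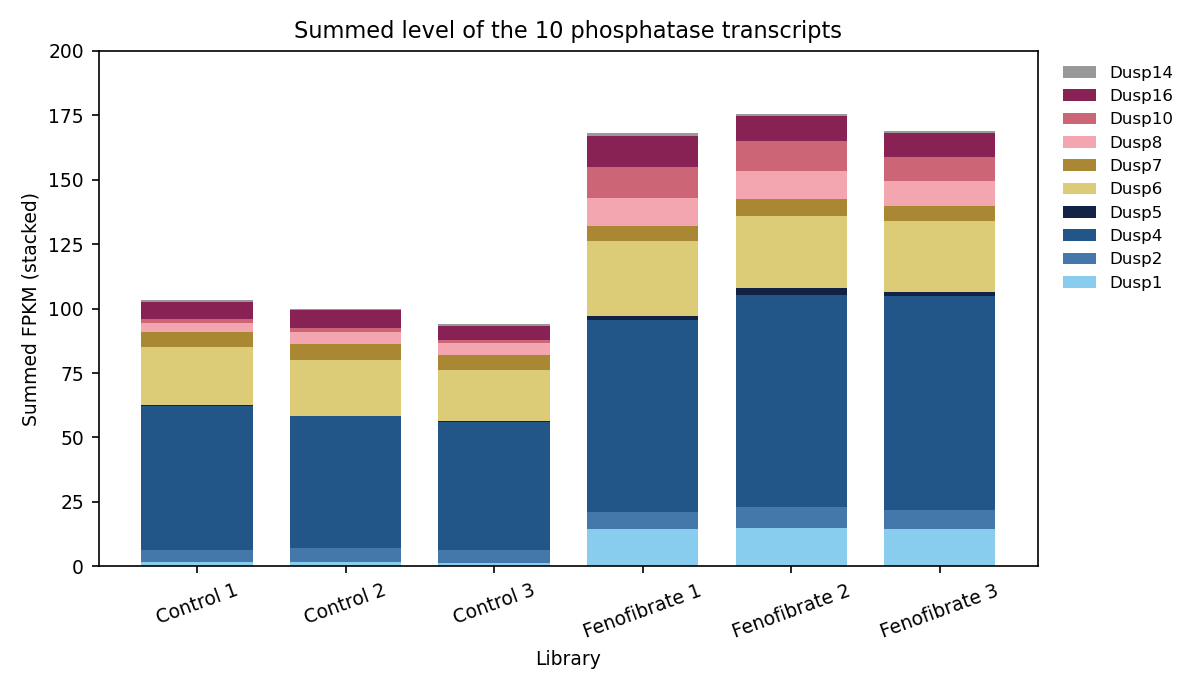
Deposited FPKM of the 10 phosphatase genes stacked for each library, with 1 bar per library and 1 colour per gene. The bars reach 94.0 to 103 FPKM in control and 168 to 175 FPKM with fenofibrate, and Dusp4 is the largest segment in each.

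Of 16 atypical dual-specificity genes, 8 were counted highly enough to be tested, and 2 rose, 1 fell and 5 were not called by edgeR's quasi-likelihood test, with a median log2 fold change of -0.02. Dusp3, a small phosphatase that can act on ERK and JNK, rose by 0.30 ± 0.04 (log2 scale, SE, adjusted p = 0.00172). Dusp18, found in mitochondria, fell by 0.45 ± 0.07 (adjusted p = 0.00239). Dusp28 rose by 0.50 ± 0.13 (adjusted p = 0.0219), a call that was lost in 5 of 14 alternative settings (adjusted p up to 0.132). The log2 fold changes of Dusp11, Dusp12, Dusp19 and Dusp22 were -0.04, 0.00, -0.12 and -0.19, with adjusted p values of 0.577, 0.998, 0.170 and 0.162.

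Of 8 tyrosine and serine/threonine phosphatases that act on MAP kinases, 5 were tested and 0 were called by edgeR, 0 also by DESeq2, and 1 had an unadjusted p below 0.05. These were the PP2C genes Ppm1a, Ppm1b and Ppm1d and the PP2A catalytic genes Ppp2ca and Ppp2cb, with log2 fold changes of 0.08, 0.16, 0.04, 0.01 and 0.08. The tyrosine phosphatase genes Ptpn5, Ptpn7 and Ptprr, which bind MAP kinases, had 0, 13 and 1 counts over the controls and 0, 11 and 3 with fenofibrate.

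The kinases that these phosphatases act on, and those upstream, moved in both directions. Of the 13 MAP kinase genes in the fit, 3 rose and 4 fell, with 6 uncalled (median log2 fold change -0.07). The p38 genes Mapk12 and Mapk11 fell 2.20-fold and 2.10-fold (adjusted p = 0.00129 and 0.000220). Mapk7, the gene of ERK5, differed by -0.49 ± 0.13 (log2, adjusted p = 0.0233), a call lost in 5 of 14 alternatives (adjusted p up to 0.0722). Mapk6, an atypical kinase gene of the ERK family, rose 1.74-fold (adjusted p = 4.66e-05). The JNK gene Mapk8 differed by 0.35 ± 0.10 (log2, adjusted p = 0.0295), and this call was lost in 10 of 14 alternatives (adjusted p up to 0.196).

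Of 7 MAP2 kinase genes, 3 rose, 0 fell (0 also at an unadjusted p of 0.05 and with DESeq2) and 4 were not called. The p38 activator gene Map2k3 rose 1.69-fold, Map2k4, which activates JNK, 1.28-fold, and the ERK activator gene Map2k1 1.15-fold (adjusted p = 0.000151, 0.00144 and 0.0121). Of 18 MAP3 kinase genes, 7 fell, 3 rose and 8 were not called (median log2 fold change -0.14). Map3k12 and Map3k11, both activators of the JNK branch, fell 1.90-fold and 1.86-fold, and Map3k1 fell 1.68-fold (adjusted p = 0.000860, 3.99e-05 and 0.000811). The RAF kinase genes Araf and Braf rose 1.39-fold and 1.27-fold (adjusted p = 0.00129 and 0.000839).

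Downstream, 3 of 11 kinases activated by MAP kinases rose, 2 fell and 6 were not called (median log2 fold change -0.06). Mapkapk3, a p38 target kinase, rose 1.36-fold and Mknk2 1.15-fold, while the ribosomal S6 kinase genes Rps6ka6 and Rps6ka1 fell 1.65-fold and 1.39-fold (adjusted p = 0.00263, 0.00363, 0.00158 and 0.00317). Rps6ka2 differed by 0.39 ± 0.12 (log2, adjusted p = 0.0345), lost in 11 of 14 alternatives (adjusted p up to 0.181). Of 10 scaffold genes, 4 rose, 2 fell and 4 were not called (median 0.13). The JNK scaffold genes Spag9 and Mapk8ip1 rose by 0.43 and 0.37 on the log2 scale, and the arrestin gene Arrb2 fell 1.73-fold (adjusted p = 0.000451, 0.000866 and 0.000451). Mapk8ip3 differed by 0.36 ± 0.08 (log2, adjusted p = 0.0112), lost in 4 of 14 alternatives (adjusted p up to 0.147).

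Many phosphatase transcripts induced by stimuli are short-lived and carry AU-rich elements. Of 8 genes of proteins that bind such elements, 4 fell, 2 rose and 2 were not called (median log2 fold change -0.25). Zfp36, which promotes decay of such transcripts, rose 1.58-fold, and its relative Zfp36l1 fell 1.51-fold (adjusted p = 0.00448 and 0.000302). The RNA-binding protein genes Tia1 and Khsrp fell 2.75-fold and 1.22-fold (adjusted p = 0.000211 and 0.000846). Zfp36l2 differed by 0.24 ± 0.06 (log2, adjusted p = 0.0147), lost in 2 of 14 alternatives (adjusted p up to 0.0547).

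Of 20 transcription factor and coactivator genes of stimulus-induced transcription, 8 rose, 5 fell and 7 were not called (median log2 fold change 0.25). In normalised CPM, Fos averaged 10.8 ± 1.77 (SD) in control and 42.04 ± 10.2 with fenofibrate (3.88-fold, adjusted p = 0.000276 in edgeR). Srf, whose product binds CArG boxes, rose 2.52-fold and Junb 2.34-fold (adjusted p = 6.75e-05 and 0.000169). Trp53 fell 1.64-fold and Crtc3, a coactivator of CREB, 1.26-fold (adjusted p = 0.000161 and 0.0136). Over the 10 lists of pathway genes together, 28 of 100 genes tested rose and 25 fell, against 2664 and 2662 of 13629 in all.

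**Figure D5:**
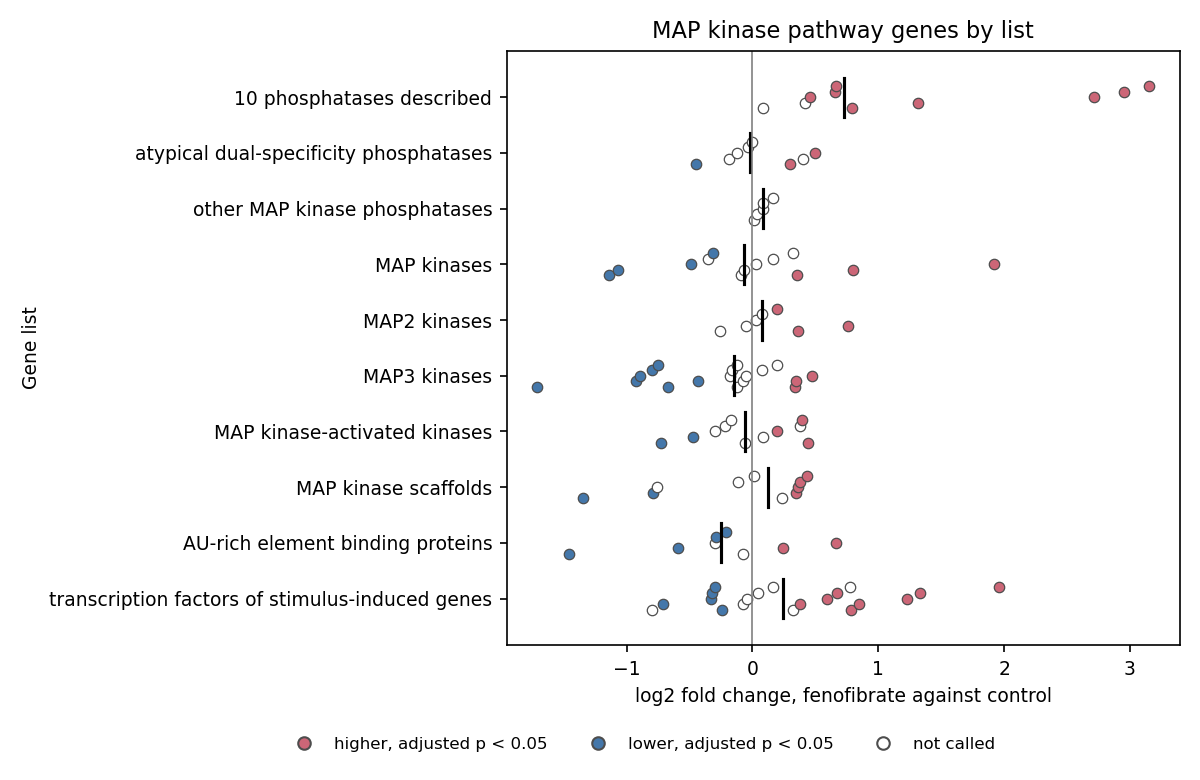
log2 fold change of each tested gene by list, filled where called at an adjusted p of 0.05, with a black bar at the median of each list. The 10 phosphatases have a median of 0.73 and the other lists medians from -0.25 to 0.25, with calls in both directions in 7 of the 9 other lists drawn.

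The 8 members were called higher in all 14 alternative settings. Of the 39 other genes named by the rule, 27 have a span that overlaps that of a further annotated gene, and shared exon bases were not counted for them. Only RNA was measured, so nothing here bears on phosphatase protein or activity.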

How the data were processed

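RNA of 3 control and 3 fenofibrate libraries, grouped by sample title, was measured by sequencing of mRNA-enriched libraries, per the labels' protocols. The deposited table holds raw counts per gene and FPKM made by the authors for each library. The submitters' processing notes name HISAT2 2.0.4, StringTie 1.3.0 and GRCm39 without their roles, while the gene coordinates are those of GRCm38, which 98.7% of the gene IDs shared with GENCODE M21 match (Dusp1 is shorter in the table than there). The counting tool and strand setting are not given in the sources used here.

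Tests on the counts used edgeR 4.0.16 under R 4.3.3 (filterByExpr, TMM, glmQLFit and glmQLFTest, Benjamini-Hochberg adjustment over 13629 genes). The SE is the log2 fold change divided by the square root of F. Alternatives were DESeq2 1.42.0, no filter on low counts, library totals, a replicate block, leaving out each library, and limma 3.58.1 on log2(FPKM + 0.5), with pseudocounts 0.1 and 1 or with no filter (otherwise FPKM of at least 0.5 in 3 libraries). The fit was checked on simulated counts. The labels call the libraries biological triplicates without naming separate cultures, so p-values measure the spread between these libraries.

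The members, lists and motifs were chosen with earlier results of these data known. Genes named are the 10 members, every other Dusp gene tested, and per list at most 3 called genes of largest change in the main direction and 2 in the other, with at least 1 FPKM in the higher group. Genes named beyond this were chosen after their values were seen.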

Additional observations from a re-analysis of the deposited data

How the results depend on the processing

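The 8 members called higher were called higher in all 14 alternative settings, and Dusp7 and Dusp14 in none of them. The log2 fold change of Dusp1 ran from 2.53 to 3.22, that of Dusp10 from 2.28 to 3.06 and that of Dusp5 from 1.17 to 2.92, each lowest with limma on log2(FPKM + 1), where the pseudocount is large beside these genes' control levels. Of 686 values recomputed for 49 named genes, 646 kept the call or its absence and 37 lost the call. Another 3 gained a call (Dusp19 in limma fits with a filter, adjusted p = 0.0398 to 0.0452). Direction was compared only where either fit called the gene, and 0 of those values reversed. The number of genes called over the whole table ran from 4248 to 5460, and that of pathway genes from 45 to 53. Library totals shifted the median log2 fold change of all genes to -0.06.

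The replicate numbers pair the libraries only by name: deviations of same-numbered libraries from their group means correlated at 0.0278, 0.0127 and -0.0035, and not every library correlated best with its own number. With the replicate block, 4540 genes and again 8 members were called. Depth limits Dusp5 and Dusp14 most, with 31 and 135 counts over the controls.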
